A study of Mus musculus with 8 samples.

Results

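The hypoxia factors and targets described here are 8 genes, chosen by name from the 50462 gene identifiers in the count table. They comprise the oxygen-regulated HIF subunits Hif1a and Epas1, their regulators Egln1, Egln3 and Vhl, and the target genes Bnip3, Ndrg1 and Ankrd37, which lie outside glycolysis. All 8 were found and all 8 passed the filter on low counts. The libraries are bulk RNA-seq of medial knee cartilage caps, 1 per mouse, from male wild-type C57BL/6J mice. The 4 naive mice had no surgery and were sampled on day 0, at 11 weeks of age. In the 4 DMM mice the ligament that holds the medial meniscus of the left knee was cut at 11 weeks (destabilisation of the medial meniscus, a model of post-traumatic osteoarthritis), and they were sampled on day 42, at 17 weeks. No sham-operated mice were analysed here, so surgery and 6 weeks of ageing cannot be told apart.

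Hypoxia-inducible factor (HIF) is a transcription factor made of an oxygen-regulated alpha subunit, encoded by Hif1a or Epas1 (HIF-2α), and a stable partner, encoded by Arnt. When oxygen is available, prolyl hydroxylases of the Egln family modify the alpha subunit, the Vhl protein binds it and it is degraded. When oxygen is short, the subunit escapes and switches on genes of glycolysis, mitophagy, angiogenesis and matrix synthesis, and Egln1 and Egln3 are themselves among its targets. Articular cartilage has no blood vessels, growth plate chondrocytes need Hif1a to survive, and Epas1 has been linked to chondrocyte hypertrophy and cartilage breakdown. The libraries measure mRNA, whereas the alpha subunits are controlled largely as proteins.

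HIF binds DNA at a short core, read here as ACGTG or GCGTG on either strand. The stretches below show where that core stands in the members' promoters. RefSeq (GRCm38.p6) gave a promoter, taken as 250 bases before to 50 bases after the gene start in RefSeq, for 6 of the 8 genes, all but Epas1 and Ndrg1. The core occurred in 5 of these 6, and in 43.8% of the 32851 promoters in the RefSeq set, so a match alone is common. Each line is the 30-base stretch with the most matches in that promoter, written 5′ to 3′ on the strand of the gene, with the matches in capitals.
Bnip3: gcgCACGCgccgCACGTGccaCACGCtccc
Ankrd37: ccttcactgcgCACGCGTGctgcggccgcc
Hif1a: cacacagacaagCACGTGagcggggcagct
Egln1: ggcccggcccgccGCGTGcgcgcggccccc
Egln3: atgtgcatctcagACGTGagatccaggttt
These lie at chr7:138909597-138909626 (minus strand), chr8:45999987-46000016 (minus), chr12:73907720-73907749 (plus), chr8:124949364-124949393 (minus) and chr12:54204087-54204116 (minus). The RefSeq starts of Hif1a and Ankrd37 lie several kilobases inside the gene spans given below, which are those of GENCODE, downstream of the 5′ end. Those of Vhl, Egln1 and Bnip3 lie only just inside their spans. Cores on the 2 strands can overlap, as in the palindrome CACGTG, which counts as 2 matches. The whole Bnip3 promoter held 5 matches, that of Ankrd37 4, Hif1a 3, Egln1 2 and Egln3 1, and the Vhl promoter held 0.

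Of the 8 genes, 5 had significantly more mRNA in DMM than in naive cartilage and none had significantly less. Hif1a, Epas1, Egln1, Ndrg1 and Ankrd37 rose, with fold changes from 1.24 to 2.01, while Vhl, Egln3 and Bnip3 did not pass the test. The test was DESeq2's Wald test over all genes, passed where the p adjusted by the Benjamini-Hochberg method was 0.05 or below. Among the 17350 genes tested, 23.1% passed it, 11.6% with higher mRNA in DMM. The study's own rule also asks for a change of 1.5-fold or more. Only Ankrd37 met both conditions, where 14.0% of all genes tested did. Those higher in DMM were 7.89% and those lower 6.07% of all genes tested. The median log2 fold change was 0.35 over the 8 genes and -0.02 over all genes tested. Scaling by the total count raised these medians to 0.50 and 0.14.

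**Figure D1:**
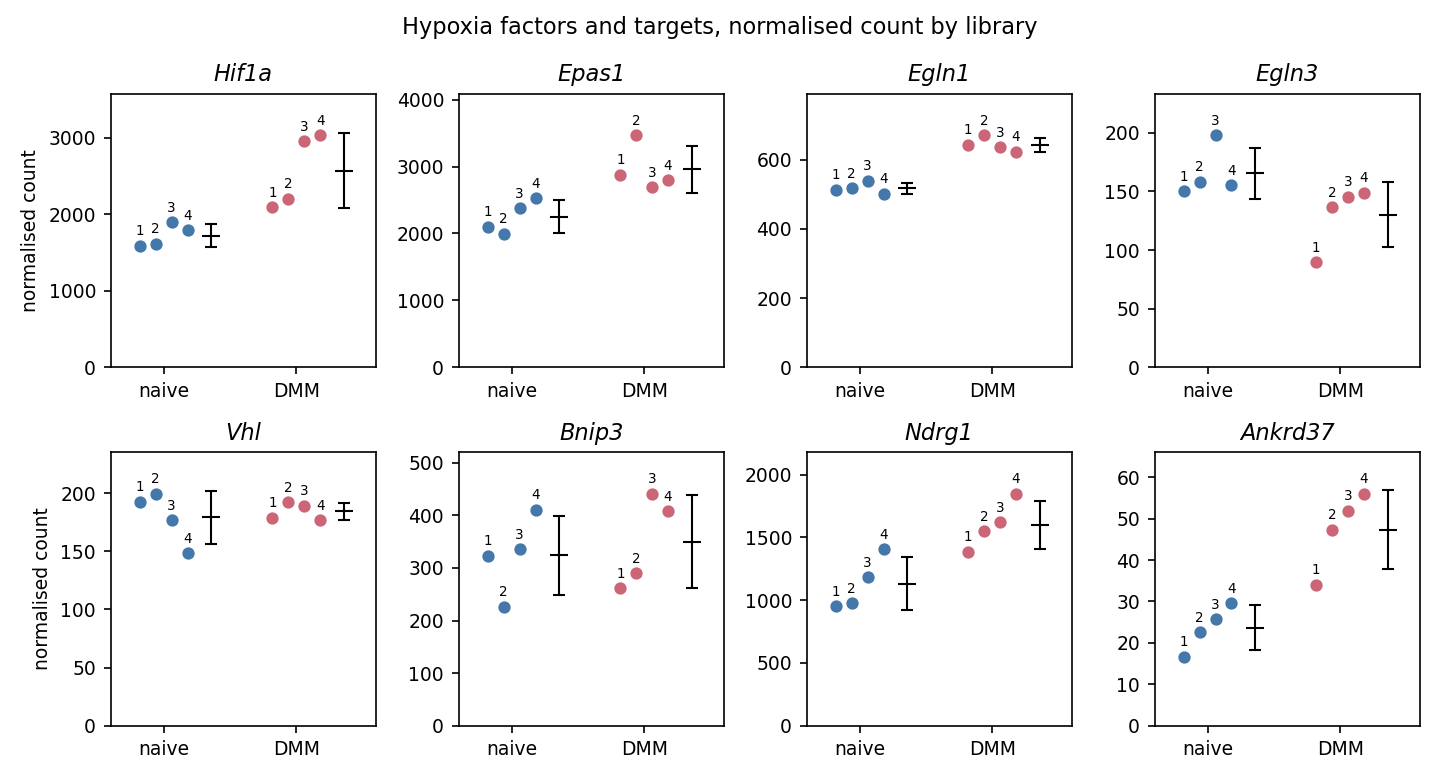
Normalised count (linear axis from 0) of each gene in each of the 8 libraries, with the replicate number above each point and the mean ± SD (n = 4) as a bar beside it. For Hif1a, Epas1, Egln1 and Ankrd37 every DMM library lies above every naive library, for Egln3 every DMM library lies below, and the groups overlap for Vhl, Bnip3 and Ndrg1.

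The libraries held 12479443 to 16548002 estimated counts each. The chondrocyte marker list, with Acan and Col2a1 among its 10 genes, was detected in full and took 0.242% to 0.404% of counts in naive and 0.647% to 1.22% in DMM libraries. Markers of other cells were also present, so the caps were not chondrocytes alone. Neutrophil markers held 0.858% to 1.19% of counts in naive and 0.403% to 0.849% in DMM libraries. Erythroid markers held 1.08% to 1.81% and 0.597% to 1.26%, and osteoblast and osteocyte markers 0.91% to 1.31% and 2.59% to 3.18%. Macrophage markers held 0.0498% to 0.0532% and 0.0484% to 0.0599%, osteoclast markers 0.0753% to 0.116% and 0.0934% to 0.161%, and synovial fibroblast markers 0.225% to 0.743% and 0.306% to 0.470%. Most counts of the synovial fibroblast list came from Prg4, which was at -0.54 on the log2 scale and did not pass. Of the 9 genes in that list 5 rose and 1 fell, with a median log2 fold change of 0.62. Most counts of the osteoblast and osteocyte list came from Col1a1, which rose by 1.23 on the log2 scale, so its share largely follows that gene. Of the 10 genes in the osteoblast and osteocyte list 9 rose. Skeletal muscle markers stayed at or below 0.0111%. In bulk tissue, fewer cells of a type and less RNA per cell cannot be told apart.

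Hif1a (chromosome 12, 73901375 to 73947530, GRCm38, plus strand, protein coding) encodes the alpha subunit that drives most of the acute response to low oxygen. It stood at 1587, 1615, 1892 and 1789 normalised counts in naive replicates 1 to 4 and at 2093, 2203, 2953 and 3032 in DMM replicates 1 to 4. The groups did not overlap, and DMM replicates 3 and 4 were higher than DMM replicates 1 and 2. Its log2 fold change was 0.58 (SE 0.15, 95% interval 0.29 to 0.87, DESeq2 adjusted p = 0.00106), a 1.49-fold rise that fell just short of the 1.5-fold rule. With TMM factors it was 0.61, and with edgeR's quasi-likelihood test 0.60, both past that rule (adjusted p = 0.000587 and 0.0177). Hif1a passed the adjusted p in all 8 fits that left out 1 library, and in 4 of them it also met the fold rule. The antisense gene Gm15283 overlaps it and held 11.3 to 57.5 counts in a library, and whether the counting used strand was not given in the sources used here.

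Epas1 (chromosome 17, 86753700 to 86833410, plus strand) encodes the second alpha subunit and is also abundant in endothelial cells. Its normalised counts were 2101, 1998, 2381 and 2524 in naive and 2881, 3470, 2691 and 2794 in DMM replicates 1 to 4. Again every DMM library was above every naive library, but the highest here was DMM replicate 2 and not replicates 3 and 4. Epas1 rose by 0.39 on the log2 scale (SE 0.12, 95% interval 0.15 to 0.63, DESeq2 adjusted p = 0.0092), or 1.31-fold. The adjusted p was 0.0544 without naive replicate 1 and 0.0522 without DMM replicate 2, and it was 0.05 or less in the other 6 fits. The endothelial marker list moved with it, from 0.0267% to 0.0352% of counts in naive and 0.0413% to 0.0479% in DMM libraries. All 10 of its genes were detected and 7 of 10 rose, where 11.6% of all genes did. Cdh5, the vascular cadherin, rose by 0.63, while Pecam1, the platelet endothelial adhesion molecule, was at -0.03. The part of these cells in the change of Epas1 was not tested.

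The balance of the 2 alpha subunits differed among the DMM libraries more than between the groups. Counts of Epas1 divided by those of Hif1a in the same library, which do not depend on scaling between libraries, were 1.32, 1.24, 1.26 and 1.41 in naive replicates 1 to 4. In DMM they were 1.38, 1.58, 0.91 and 0.92. DMM replicates 3 and 4 were thus the only libraries with fewer Epas1 than Hif1a counts. The mean log2 ratio was 0.38 ± 0.09 in naive and 0.22 ± 0.40 in DMM (SD, n = 4 per group), a difference of -0.17 that was within the spread of the DMM group (two-sided exact permutation test over 70 assignments, p = 0.40).

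**Figure D2:**
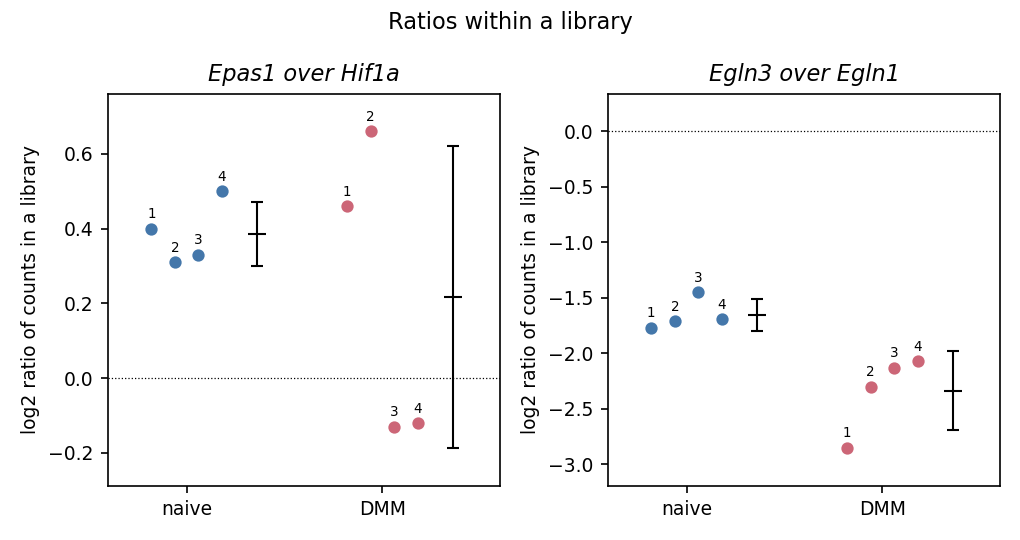
Log2 ratio of the counts of 2 genes within each library, with the replicate number above each point and the mean ± SD (n = 4) beside it; a value of 0 means equal counts. Epas1 over Hif1a falls below 0 in DMM replicates 3 and 4 (-0.13 and -0.12), and Egln3 over Egln1 lies between -1.77 and -1.45 in naive and between -2.85 and -2.07 in DMM libraries.

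The prolyl hydroxylases sense oxygen for the pathway. Egln1 (chromosome 8, 124908587 to 124949324, minus strand), the main hydroxylase of HIF in most tissues, stood at 513.6, 517.5, 539.4 and 501.2 normalised counts in naive and 643.5, 670.8, 636.3 and 623.6 in DMM replicates 1 to 4. The groups did not overlap, and the spread within each was the smallest of the 8 genes in naive and in DMM libraries, at 3.08% and 3.10% of the mean. Egln1 rose by 0.31 on the log2 scale (SE 0.09, 95% interval 0.13 to 0.50, DESeq2 adjusted p = 0.00617), or 1.24-fold. Its adjusted p stayed between 0.0196 and 0.0473 in the 8 fits that left out 1 library.

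Egln3 (chromosome 12, 54178981 to 54203860, minus strand), a hydroxylase with strong induction by low oxygen, had normalised counts of 150.4, 158.3, 198.0 and 155.3 in naive and 89.6, 136.5, 145.7 and 148.9 in DMM replicates 1 to 4. Every DMM library lay below every naive library, though the nearest values, 148.9 and 150.4, almost met. The log2 fold change was -0.35 (SE 0.20, 95% interval -0.74 to 0.05, DESeq2 adjusted p = 0.215). The interval includes no change and a loss of 0.74, so a decrease was not shown at this depth and n. With Egln3, 5 of the 8 genes had groups that did not overlap, 4 higher and 1 lower in DMM. Of all genes tested 22.5% did so, 12.1% higher and 10.5% lower.

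Within a library, Egln3 counts were 0.29, 0.31, 0.37 and 0.31 of the Egln1 counts in naive replicates 1 to 4 and 0.14, 0.20, 0.23 and 0.24 in DMM. The ratio was lower in every DMM library than in every naive library. The mean log2 ratio was -1.65 ± 0.14 in naive and -2.33 ± 0.35 in DMM (SD, n = 4 per group), a difference of -0.68. The two-sided exact permutation test gave p = 0.0286, the smallest the design allows, and 0.0572 after adjustment over the 2 ratios tested, so the difference did not pass once adjusted.

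Vhl (chromosome 6, 113623959 to 113631633, plus strand), the part of the ubiquitin ligase that recognises hydroxylated HIF, was at nearly the same level in both groups. Its normalised counts were 192.6, 199.6, 176.6 and 148.5 in naive and 179.1, 192.4, 189.3 and 176.9 in DMM replicates 1 to 4. All DMM values fell inside the naive range. The log2 fold change was 0.04 (SE 0.15, 95% interval -0.25 to 0.33, DESeq2 adjusted p = 0.89), which leaves room for changes of up to 1.26-fold upwards or 0.84-fold downwards.

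Among the targets, Ankrd37 (chromosome 8, 45996902 to 46005707, minus strand), a small ankyrin repeat protein induced by HIF, changed most and was the least abundant. It had 19, 17, 24 and 26 estimated counts in naive and 41, 44, 63 and 62 in DMM replicates 1 to 4. Normalised, these were 16.7, 22.6, 25.7 and 29.5 in naive and 34, 47.3, 51.9 and 56 in DMM. The groups did not overlap. Ankrd37 rose by 1.01 on the log2 scale (SE 0.31, 95% interval 0.39 to 1.62, DESeq2 adjusted p = 0.00915), or 2.01-fold, and at these low counts the interval runs from 1.31-fold to 3.08-fold. The call was lost without naive replicate 1, with an adjusted p of 0.0694 and a log2 fold change of 0.86, and it held in the other 7 fits. Of its 31-base words, 21.4% also occur in other genes, mostly Lrp2bp, which overlaps it on the opposite strand and held 2 to 19 counts in a library. Lrp2bp had a log2 fold change of 0.92, without an adjusted p. Ufsp2 also overlaps Ankrd37 on the opposite strand and held 229.7 to 405.6 counts, with a log2 fold change of -0.06. The count of Ankrd37 and its call are therefore less certain.

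Ndrg1 (chromosome 15, 66929318 to 66969640, minus strand), a stress-responsive gene that HIF induces in many cell types, was the most abundant target. Its normalised counts were 952.4, 975.2, 1185 and 1406 in naive and 1387, 1550, 1623 and 1848 in DMM replicates 1 to 4. The groups overlapped only because naive replicate 4, at 1406, was above DMM replicate 1, at 1387. Ndrg1 rose by 0.50 (SE 0.15, 95% interval 0.21 to 0.80, DESeq2 adjusted p = 0.00696), or 1.42-fold, and passed the adjusted p in all 8 fits that left out 1 library. Without naive replicate 4 the log2 fold change was 0.63, which also met the fold rule.

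Bnip3 (chromosome 7, 138890836 to 138909519, minus strand), a mitochondrial protein that triggers mitophagy and is a classical HIF target, did not pass the test. Its normalised counts were 323.6, 226.2, 336.1 and 410.5 in naive and 261.2, 290.2, 441.2 and 407.9 in DMM replicates 1 to 4. Both groups spread widely, with an SD of 23.4% of the mean in naive and 25.1% in DMM, and they overlapped. The log2 fold change was 0.11 (SE 0.22, 95% interval -0.32 to 0.54, DESeq2 adjusted p = 0.78). As for Hif1a, DMM replicates 3 and 4 were above DMM replicates 1 and 2. Of the 31-base words of Bnip3, 57.0% also occur in other genes, and 46.7% occur in AC160336.1, a noncoding RNA on chromosome 14 annotated with a length of 93147 bases. AC160336.1 held 4893 to 8303 counts in a library (log2 fold change 0.01, DESeq2 adjusted p = 0.951). How reads were divided between them cannot be seen in the table, so the level of Bnip3 and its lack of a call are uncertain.

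**Figure D3:**
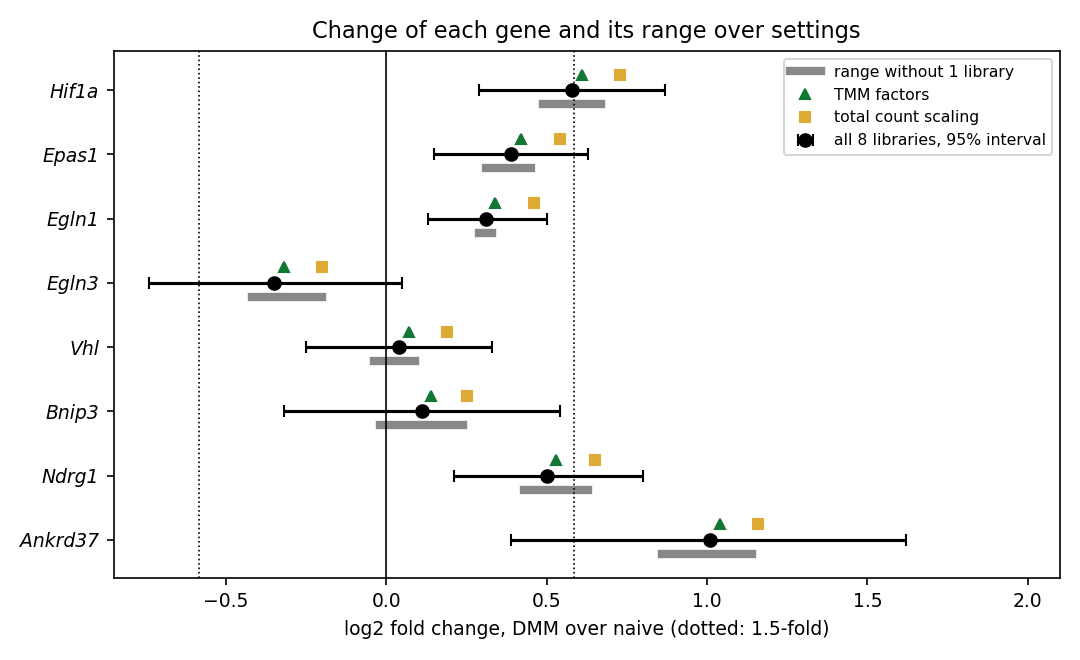
Log2 fold change of DMM over naive for each gene: black points and bars are the DESeq2 estimate from 8 libraries with its 95% interval, grey bars the range over the 8 fits without 1 library, and triangles and squares the estimates under other scalings. Hif1a, at 0.58, lies at the dotted 1.5-fold line, Ankrd37 beyond it at 1.01, and the intervals of Egln3, Vhl and Bnip3 include 0.

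Levels were compared between genes as normalised counts per kilobase of annotated exon. They are levels of the whole caps, in which markers of other cells were also present, and not of chondrocytes alone. In naive cartilage Epas1 was the highest, at 402.7 ± 43.6 per kilobase, followed by Hif1a at 291.9 ± 24.6 (SD, n = 4 each), and these did not overlap. Ndrg1 (171.3 ± 32.1), Egln1 (144.1 ± 4.43) and Bnip3 (143.1 ± 33.4) followed, and their ranges overlapped. Egln3 (62.2 ± 8.23) and Vhl (59.8 ± 7.56) were next and also overlapped, and Ankrd37 was last, at 15.3 ± 3.51.

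In DMM cartilage the upper 5 genes kept this order on the per-kilobase scale, and Vhl stood above Egln3. Epas1 was at 529.4 ± 62.5 and Hif1a at 435.9 ± 83.2 per kilobase (SD, n = 4 each), and here their ranges overlapped. Ndrg1 (242.9 ± 29.1) no longer overlapped Egln1 (179.1 ± 5.54), while Bnip3 (154.6 ± 38.8) overlapped Egln1. Vhl (61.5 ± 2.53) lay above Egln3 (48.9 ± 10.4) without overlap, and Egln3 overlapped Ankrd37 (30.7 ± 6.19).

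**Figure D4:**
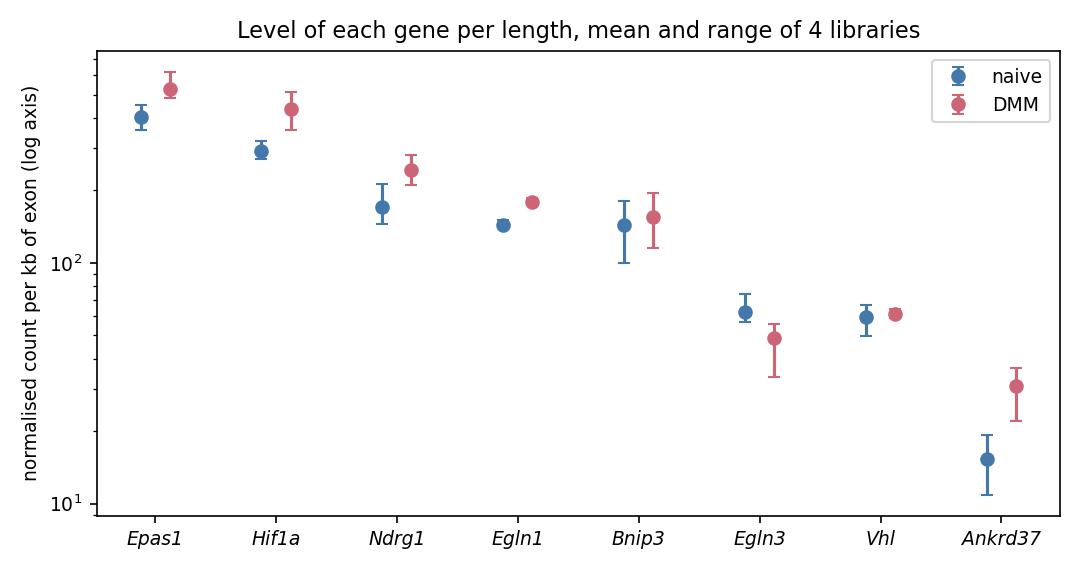
Normalised count per kilobase of annotated exon (log axis) for the 8 genes in naive and DMM cartilage, as the mean with the range of 4 libraries. The genes are ordered by their naive level, from Epas1 at 402.7 to Ankrd37 at 15.3.

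The rest of the pathway was read from lists of genes named for their known role, with the same test. The lists were chosen with earlier results of these data known, so their counts beside the share of all genes are a description only. Of 14 other subunits and regulators of HIF, 13 did not pass, and the median log2 fold change was -0.02, as for all genes tested. Arnt, the stable partner, had 910.3 ± 41.0 normalised counts in naive cartilage, and 954.9 ± 31.1 after DMM (SD, n = 4; log2 fold change 0.07). The single gene that passed was Arnt2, a relative of Arnt, which rose by 0.76 (DESeq2 adjusted p = 0.0374). The groups overlapped for Arnt2, edgeR did not call it, and it passed in 2 of the 8 fits that left out 1 library.

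Of 25 other HIF targets outside glycolysis, 9 rose, 3 fell and 13 did not pass, where 11.6% of all genes passed as higher and 11.5% as lower. The median log2 fold change was 0.22. The 9 that rose did so by 1.5-fold or more. Plod2, which hydroxylates collagen lysines, had 1529 ± 227.1 normalised counts in naive cartilage and 3236 ± 751.6 after DMM (SD, n = 4 each). Its rise was 1.08 on the log2 scale (DESeq2 adjusted p = 9.79e-08). P4ha1, a collagen prolyl hydroxylase, rose by 0.90 and Lox, which cross-links collagen, by 0.66. Bhlhe40, a circadian repressor, rose by 1.08 and Insig2, a regulator of sterol synthesis, by 0.60. Each of these 5 passed in all 8 fits that left out 1 library, and their groups did not overlap. Of the osteoblast and osteocyte markers 9 of 10 also rose, with a median of 1.06, and of the chondrocyte markers 5 of 10, with a median of 0.83. Their part in the rise of these targets was not tested.

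The 3 targets that fell were Hmox1, Ero1l and Mxi1. Hmox1, which degrades haem, fell by 0.81 (DESeq2 adjusted p = 0.00263) and passed in all 8 fits that left out 1 library. Ero1l, an oxidase of the endoplasmic reticulum, fell by 0.47 (DESeq2 adjusted p = 0.0274), and Mxi1, an antagonist of Myc, by 0.34 (DESeq2 adjusted p = 0.0424). Ero1l passed in only 3 of those 8 fits and Mxi1 in 2. The groups overlapped for all 3 genes. Bnip3l, the closest relative of Bnip3 and abundant in maturing red cells, was at -0.39 (DESeq2 adjusted p = 0.063) and did not pass. The erythroid marker list, of which 8 of 9 matched genes fell, moved in the same direction, as given above, and its part in these values was not tested.

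Of 17 glycolytic targets, 0 rose, 6 fell and 11 did not pass, where 11.6% of all genes passed as higher and 11.5% as lower. Their median log2 fold change was -0.16, and 7 of 17 had a value above 0. Slc2a3, a glucose transporter, was the only one past 1.5-fold, with a fall of 0.67 (DESeq2 adjusted p = 0.000228), and the other 5 that fell did so by 0.31 to 0.46. Under total count scaling the median was 0.00, below the 0.14 of all genes, and Slc2a3 was at -0.51, no longer past the fold rule. The neutrophil and erythroid marker lists were lower in DMM as well, with 11 of 12 and 8 of 9 genes that fell and medians of -0.86 and -0.99. Their part in the glycolytic values was not tested.

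A further list, also chosen with earlier results of these data known, holds genes of matrix breakdown, hypertrophy and inflammation that have been linked to Epas1 in chondrocytes. Of 9 genes, 8 had an adjusted p and 6 rose by 1.5-fold or more, where 7.89% of all genes did. Ptgs2, the inducible cyclooxygenase, had 24.9 ± 4.71 normalised counts in naive cartilage and 150.2 ± 58.6 after DMM (SD, n = 4 each). Its rise was 2.60 on the log2 scale (DESeq2 adjusted p = 6.94e-13). Mmp3, the matrix metalloproteinase stromelysin, rose by 3.50, Col10a1, the collagen of hypertrophic cartilage, by 1.12, Mmp13 by 0.91, Adamts4, an aggrecanase, by 0.79 and Vegfa by 0.63. Adamts4 passed in 3 of the 8 fits that left out 1 library and the other 5 in all 8. Mmp9 and Mmp12 did not pass, at 0.06 and 0.33. The osteoblast and osteocyte and chondrocyte lists were also higher in DMM, and the list shares 1 gene, Vegfa, with the targets outside glycolysis.

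**Figure D5:**
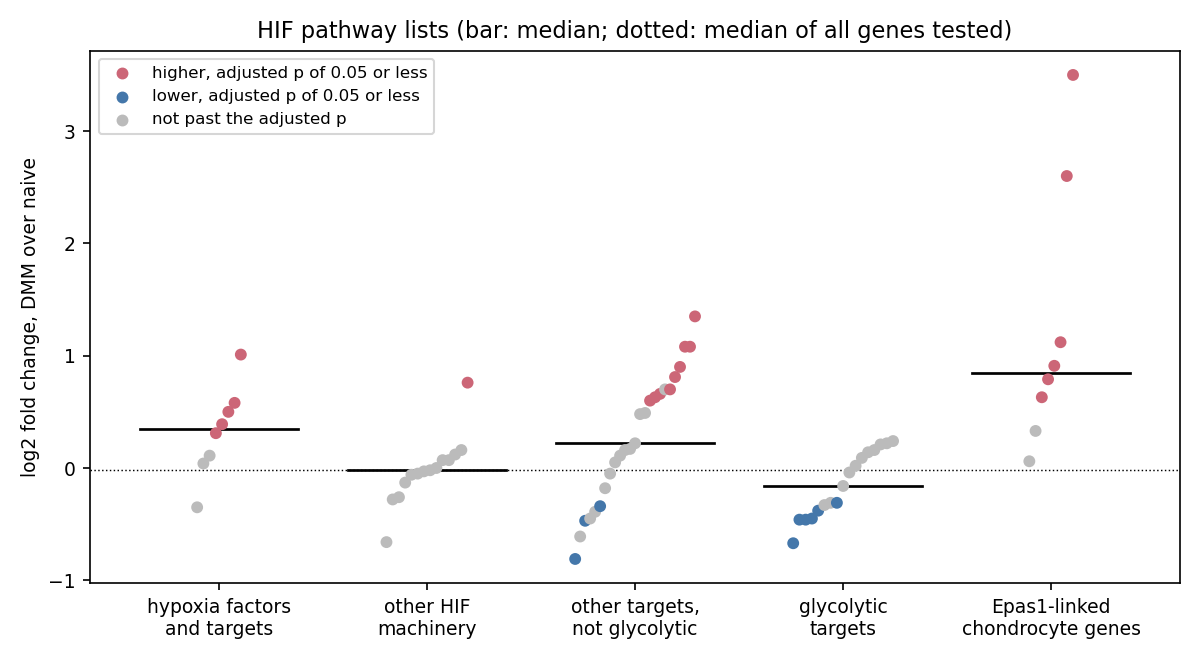
Log2 fold change of DMM over naive for each gene with an adjusted p in 5 lists, coloured by whether it passed, with list medians as bars (0.35, -0.02, 0.22, -0.16 and 0.85 from left to right) and the median of all genes, -0.02, as a dotted line. Most of the other HIF machinery sits near the dotted line, and the glycolytic targets that passed lie below it.

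Genes with the most similar profile were sought among the 11039 genes whose mean normalised count was 100 or more. Likeness was the root mean square difference, over the 8 libraries, of log2(normalised count + 1) centred on each gene's own mean. For Hif1a the nearest were Cst3, which encodes the protease inhibitor cystatin C, and Casc4, with differences of 0.0654 and 0.0707. For Epas1 they were Arhgap12 (0.0600) and Bbs1 (0.0748), and for Egln1 Stk25 (0.0322) and Zbtb21 (0.0351). Ndrg1 was nearest to Raph1 (0.0632) and 1700025G04Rik (0.0852). Ankrd37 was nearest to Trpv4, a mechanosensitive calcium channel, and Loxl3, a lysyl oxidase relative, with differences of 0.115 and 0.118. Among the members that did not pass, the nearest genes were Psme4 and Bap1 (Vhl), AC125059.3 and Phospho2 (Egln3), and Prkg1 and Vmn1r229 (Bnip3). For Bnip3 the distances were the largest, at 0.130 and 0.133. No chance level was set for these differences over 8 libraries and 11039 genes, so the nearest genes are a description only. Shared regulation was not tested.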

How the data were processed

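The deposited table holds estimated counts per Ensembl gene, for which the authors used Trimmomatic on the reads, Kallisto for pseudo-alignment and tximport for sums per gene. The methods name GRCm38, whereas the labels list GRCh38, a human build. The labels and the methods also name different library kits. Kallisto divides reads between similar transcripts, and 39.2% of values were not whole, so counts were rounded. Length offsets were not used. Symbols and coordinates came from GENCODE vM21 (GRCm38), where Aldoa matched 2 identifiers and Ahsp 0, and both were left out.

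All 8 libraries entered DESeq2 (version 1.42.0, R 4.3.3; Wald test, median-of-ratios factors, default filters, no covariates). Genes were called at an adjusted p of 0.05 or less and 1.5-fold or more, the rule the study states. Ratios and marker shares were compared with two-sided exact permutation tests over 70 assignments. Marker shares were the sum of a list's counts over all counts, and over the 9 lists no adjusted p was below 0.0644. Replicates were separate mice with 1 library each. Tests were run first on simulated counts. The alternatives were edgeR (4.0.16), limma-voom (3.58.1), TMM factors, total count scaling, 2 filters, no fold threshold, the replicate number as a block and leaving out each library.

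Named genes were the 8 members, up to 6 called genes of each list with the smallest adjusted p, genes needed to state a small count, and the 2 nearest profiles of each member. 1 gene that this rule names is not reported here. Arnt, Bnip3l, Cdh5, Pecam1, Mmp9, Mmp12, Prg4 and Col1a1 were added after their values were seen. The members and lists were chosen with earlier results of these data known. A gene's 31-base words were compared with all GENCODE transcripts.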

Additional observations from a re-analysis of the deposited data

Results flagged for a closer look

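In 40 groups of 4 libraries (the 8 genes, the 2 ratios, the marker shares and the total counts), 5 held a value far from the other 3 by Dixon's test, where chance gives about 2. Among the hypoxia genes this was the Egln3 count of naive replicate 3, at 198.0 normalised counts against 150.4 to 158.3 in the other naive libraries. Without that library the log2 fold change of Egln3 was -0.25.

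The other 4 values were marker shares. The endothelial list held 0.0267% of counts in naive replicate 2 and 0.0346% to 0.0352% in the other naive libraries. The erythroid list held 1.26% in DMM replicate 3 against 0.597% to 0.652%. The skeletal muscle list held 0.00379% in naive replicate 3 against 0.00085% to 0.00132%, and 0.0111% in DMM replicate 1 against 0.00126% to 0.00186%.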

How the results depend on the processing

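The same 5 genes passed the adjusted p under edgeR, limma-voom, TMM factors, total count scaling and both filters. The number called was 1 in DESeq2, 2 with edgeR, 2 with TMM factors, 3 with total count scaling, 5 with no fold threshold and 0 to 3 without single libraries, with 0 without naive replicate 1. The count of all called genes was 2422, and 4016 with no fold threshold. Among the other HIF machinery 1 gene was called, 0 with edgeR, 0 with no filter and 0 to 1 without single libraries. Among glycolytic targets 1 was called, 0 with total count scaling and 6 with no fold threshold. The counts of targets outside glycolysis and of Epas1-linked genes stayed within 1.5 times of their values under every alternative run. The marker lists were not rerun. Naive and DMM libraries share replicate numbers, but libraries of the same number did not deviate in common (correlations of 0.01, 0.08, -0.18 and 0.10, with 2 of 8 libraries closest to their own number). With the replicate block 3 of the 8 genes passed the adjusted p, and it was 0.0504 for Epas1 and 0.0808 for Egln1. The ratio of Egln3 to Egln1 differed by -0.68 with the replicate block and by -0.77 to -0.51 without single libraries, but with p = 0.125 and 0.0571 in the exact permutation tests, the smallest those designs allow. Without single libraries the log2 fold change ran from -0.04 to 0.09 for Vhl, below 0 without naive replicate 4, and from -0.02 to 0.24 for Bnip3, below 0 without naive replicate 2 and without DMM replicate 3. Why these values moved was not tested. With 4 libraries a group, changes inside the intervals given for Vhl, Egln3 and Bnip3 could not be seen.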

Other observations

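The order of the libraries within a group was compared for the 28 pairs of the 8 genes, after the values had been seen. Ndrg1 and Ankrd37 were the only pair with the same order of the 4 naive libraries and the same order of the 4 DMM libraries, and 6 further pairs shared the order in 1 group. In both groups replicate 4 had the highest and replicate 1 the lowest value of Ndrg1 and of Ankrd37. The order of the DMM libraries was not particular to this pair, as Hif1a and Egln3 also rose from replicate 1 to replicate 4. Epas1 and Bnip3 shared their order in naive libraries only. Libraries share their scaling across genes, and the order was not tested.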
